A study of Homo sapiens with 18 samples.

Results

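The transcripts of 3 FOXO transcription factors (FOXO1, FOXO3 and FOXO4) and of 7 genes known as FOXO targets or as genes that PI3K signalling keeps low (KLF2, KLF6, TXNIP, IRS2, PIK3IP1, SESN3 and CCNG2) were followed in acute myeloid leukaemia cells given the SHP2 inhibitor RMC-4550. The 10 genes were taken by gene symbol through their Ensembl gene IDs, and all 10 were among the 40184 genes of the deposited table. Each of the 10 passed the filter on low values in every line. RNA-seq was done on poly(A) RNA from 3 human cell lines, Molm-14, MV4-11 and SKNO-1. The FLT3 receptor gene has an internal tandem duplication (ITD) in Molm-14 and MV4-11, while SKNO-1 has the N822K mutation of the receptor gene KIT. Each line was treated for 24 h with the solvent DMSO or with 500 nM RMC-4550, which gave 6 groups of 3 biological replicates. The medium of SKNO-1 held 10 ng/mL human GM-CSF for all 6 of its libraries, and that of the other lines held none, so a difference between SKNO-1 and the other lines cannot be told apart from the growth factor. Each line is a single established culture. The p-values rest on the spread between replicate libraries, pooled over the 6 groups, and do not reach beyond these cultures.

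FOXO factors are forkhead transcription factors that sit at the end of the PI3K-AKT pathway. When growth factor receptors switch on PI3K, the kinase AKT phosphorylates FOXO proteins, which then bind adaptor proteins and leave the nucleus, and their target genes are read less. When PI3K signalling falls, FOXO proteins return to the nucleus and raise genes of cell cycle arrest, stress defence and receptor signalling. This switch acts on the FOXO proteins, which RNA-seq does not measure. SHP2, the phosphatase encoded by PTPN11, relays signals from receptor tyrosine kinases such as FLT3 and KIT to RAS, and RAS feeds both the MAPK pathway and PI3K.

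The promoters show which of the 10 genes hold the letters that FOXO proteins are known to bind. Sequences were taken from RefSeq (GRCh38.p14), where all 10 symbols matched and had 15 annotated starts among them. The FOXO core GTAAACA, or its reverse complement TGTTTAC, was in 3 of the 15 promoters, those of TXNIP, PIK3IP1 (1 of its 2 starts) and FOXO4. It was in 3.42% of all 35116 RefSeq promoters of the same length. A second FOXO-bound core, CAAAACA or TGTTTTG, known from insulin-responsive promoters, was in 1 of the 15, that of IRS2, and in 4.92% of all promoters. The 4 promoters that held a core are printed 5′ to 3′ on the gene's strand, from 250 bases before the start to 30 bases after it, with the core in capitals.
TXNIP: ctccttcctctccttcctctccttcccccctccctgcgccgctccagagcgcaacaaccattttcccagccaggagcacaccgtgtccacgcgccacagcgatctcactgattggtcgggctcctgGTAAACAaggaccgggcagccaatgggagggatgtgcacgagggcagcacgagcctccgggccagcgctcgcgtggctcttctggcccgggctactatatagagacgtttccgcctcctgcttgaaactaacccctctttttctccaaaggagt
PIK3IP1: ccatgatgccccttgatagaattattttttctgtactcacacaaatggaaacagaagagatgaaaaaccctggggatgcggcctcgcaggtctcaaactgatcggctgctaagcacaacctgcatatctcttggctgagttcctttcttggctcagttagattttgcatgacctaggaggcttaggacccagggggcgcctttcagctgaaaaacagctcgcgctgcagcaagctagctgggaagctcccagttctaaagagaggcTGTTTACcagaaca
FOXO4: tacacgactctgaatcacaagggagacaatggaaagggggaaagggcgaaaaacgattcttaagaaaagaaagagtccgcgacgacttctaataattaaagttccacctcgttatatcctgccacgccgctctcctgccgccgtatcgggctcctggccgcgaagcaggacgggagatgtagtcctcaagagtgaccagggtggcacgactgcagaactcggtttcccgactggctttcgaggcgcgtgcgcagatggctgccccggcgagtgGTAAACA
IRS2: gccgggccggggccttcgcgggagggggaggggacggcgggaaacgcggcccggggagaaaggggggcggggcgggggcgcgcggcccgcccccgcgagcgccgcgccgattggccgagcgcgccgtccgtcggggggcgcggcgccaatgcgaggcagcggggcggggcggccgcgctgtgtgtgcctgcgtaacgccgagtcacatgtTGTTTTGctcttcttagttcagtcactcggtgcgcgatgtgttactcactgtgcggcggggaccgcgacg
These are chr1:145996550-145996829 (minus strand) for TXNIP, chr22:31292459-31292738 (minus strand) for PIK3IP1, chrX:71095601-71095880 (plus strand) for FOXO4 and chr13:109786554-109786833 (minus strand) for IRS2. The core lay 124 bases before the start in TXNIP and 40 before it in IRS2, and 16 bases after the start in PIK3IP1 and 23 after it in FOXO4. The E-box CACGTG, a palindrome, was in the promoters of KLF6 and CCNG2 and in 7.26% of all. The GC box GGGCGGGG, or CCCCGCCC, was in 7 of the 15 promoters, those of FOXO1, FOXO3, KLF2, IRS2 and CCNG2, and in 22.8% of all. A match is a stretch of letters in this window and no more.

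Levels are in CPM, the read count of a gene scaled to the effective size of its library, from whole reads recovered from the deposited log2 values. Read totals lay between 17434810 and 19959917 in the 18 libraries. Reads of mitochondrial genes made up 5.07% to 7.02% of 14 libraries, and they were above 10% in 4. These were replicate 2 of Molm-14 with RMC-4550 (15.0%), replicates 1 and 3 of MV4-11 with DMSO (12.7% and 14.6%) and replicate 1 of MV4-11 with RMC-4550 (10.5%). Several of the 10 genes were lower or higher in these libraries, so the fits were repeated without the 4. The SKNO-1 groups and the DMSO group of Molm-14 hold none of them, so differences between those 3 groups keep their size in that fit and only their p-values move. Reads of FOXO1 can come in part from LINC00598, which shares 269 bases (4.32%) of its exons, and antisense genes share up to 1.41% of the exons of IRS2, PIK3IP1 and SESN3. All 7 myeloid markers were present in every line, with summed levels of 1265 to 1740.0 CPM. RUNX1T1, part of the fusion gene that defines SKNO-1, was at 10.9 to 14.4 CPM in that line and at 1 read or fewer elsewhere. All 4 T cell markers were at 3 reads or fewer in every library, as were MS4A1, DCN and at least 2 of the 3 erythroid markers, while the 3 B cell markers summed to 1.36 to 17.8 CPM and the 3 fibroblast markers to 2.13 to 14.6 CPM.

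**Figure D1:**
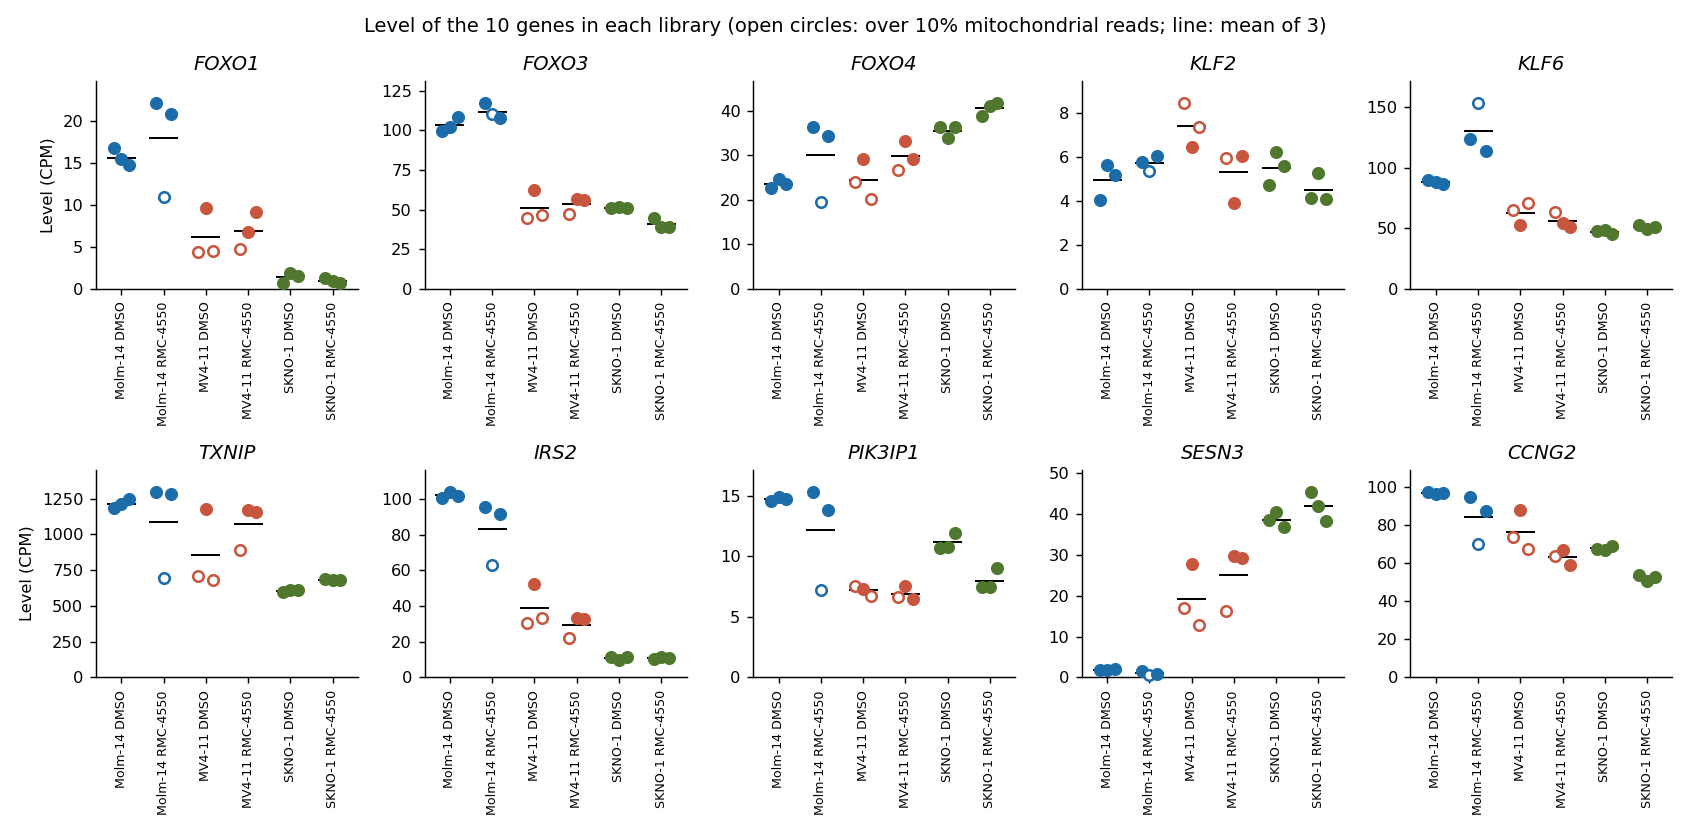
Level of each gene (CPM, linear axis from 0) in the 18 libraries, by line and treatment. Each circle is 1 library, an open circle is a library with over 10% mitochondrial reads, and the line is the mean of 3. SESN3 lay between 0.705 and 2.06 CPM in all 6 Molm-14 libraries and at 12.7 CPM or more in all others, and TXNIP was lowest within Molm-14 in the open circle, at 693 CPM.

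The first comparison asked how the 10 genes differed between the lines before any inhibitor. With DMSO, 9 of the 10 differed between MV4-11 and Molm-14 (limma, adjusted p under 0.05 here and in all that follows), 2 of them higher and 7 lower in MV4-11, where 54.2% of all genes tested differed (25.1% higher, 29.1% lower). Between SKNO-1 and Molm-14, 8 of the 10 differed, 2 higher and 6 lower in SKNO-1, where 65.3% of all genes did (31.8% higher, 33.6% lower). Between SKNO-1 and MV4-11, 6 of the 10 differed, 3 in each direction, where 42.5% of all genes did (20.1% higher, 22.4% lower). Per kilobase of exon, TXNIP was the highest of the 10 in each line, at 335 CPM per kb for Molm-14, 236 for MV4-11 and 167 for SKNO-1. The lowest was SESN3 in Molm-14 at 0.176, and FOXO1 in MV4-11 at 0.994 and in SKNO-1 at 0.221 CPM per kb. In these bulk libraries, a lower level in every cell and fewer cells with the transcript cannot be told apart.

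Among the factors, FOXO1 was highest in Molm-14 and lowest in SKNO-1. FOXO1 (ENSG00000150907, chr13:40555667-40666641 in GRCh38.p14) had 16.8, 15.5 and 14.8 CPM in the 3 Molm-14 libraries with DMSO. It had 4.41, 9.62 and 4.55 CPM in MV4-11, and 0.692, 1.93 and 1.51 CPM in SKNO-1, where 15 to 42 reads lay behind each value. The 3 lines did not overlap, and within MV4-11 the library with the lowest mitochondrial share was the high one. The log2 difference from Molm-14 was -1.43 ± 0.39 (SE) in MV4-11 (limma, adjusted p = 0.0056), while SKNO-1 differed by -3.61 ± 0.39 (adjusted p = 4.6e-07), and SKNO-1 was lower than MV4-11 by -2.17 ± 0.39 (adjusted p = 0.00034). When the 4 libraries were left out, the MV4-11 difference was -0.70 (adjusted p = 0.15) and was no longer called, while both SKNO-1 differences were, at -3.61 and -2.90. MV4-11 then has 1 DMSO library, which the fit takes to vary like the libraries of the other groups.

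FOXO3 was about as low in MV4-11 as in SKNO-1 and higher in Molm-14. FOXO3 (ENSG00000118689, chr6:108559825-108684774), the family member with the highest level per kilobase in Molm-14, had 99.6, 102 and 109 CPM there. It had 45.0, 62.4 and 46.6 CPM in MV4-11 and 50.9, 51.5 and 50.9 CPM in SKNO-1. All 3 Molm-14 libraries stood above the 6 others, and MV4-11 and SKNO-1 overlapped. The log2 difference from Molm-14 was -1.03 ± 0.11 in MV4-11 (adjusted p = 1.2e-06), while SKNO-1 differed by -1.02 ± 0.11 (adjusted p = 5.6e-07). The MV4-11 difference was -0.73 without the 4 libraries and was called. SKNO-1 and MV4-11 differed by 0.01 (95% interval -0.23 to 0.25), and without the 4 libraries by -0.29, against the 1 MV4-11 library left. FOXO3B, a near-identical copy that shares 64.2% of its 50-base stretches with FOXO3 transcripts, was counted apart with DMSO at 0.584 CPM for Molm-14, 1.54 for MV4-11 and 4.77 for SKNO-1. How reads were split between the 2 copies is not given in the sources used here, so both levels are uncertain. FOXO3B was named after its values were seen.

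FOXO4 ran the other way and was highest in SKNO-1. FOXO4 (ENSG00000184481, chrX:71095851-71103532) had 22.7, 24.6 and 23.6 CPM in Molm-14, 24.1, 29.2 and 20.2 CPM in MV4-11, and 36.4, 33.9 and 36.3 CPM in SKNO-1. SKNO-1 stood clear of the other lines, which overlapped each other. SKNO-1 was above Molm-14 by a log2 difference of 0.59 ± 0.18 (adjusted p = 0.01) and above MV4-11 by 0.55 ± 0.18 (adjusted p = 0.025). Against the 1 MV4-11 library left without the 4, the difference was smaller, at 0.28. The call against MV4-11 was lost on leaving out replicate 1 or 3 of MV4-11 (0.55 and 0.42) or of SKNO-1 (0.53 and 0.54). It was also lost with the mitochondrial share as a covariate. MV4-11 and Molm-14 differed by 0.04 (95% interval -0.35 to 0.43) in all libraries, and by 0.31 without the 4, with 1 MV4-11 library left.

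IRS2 and PIK3IP1 act upstream, at the entry to PI3K. IRS2 is an adaptor that couples insulin and cytokine receptors to PI3K and is a known FOXO target. IRS2 (ENSG00000185950, chr13:109752695-109786583) had 100.3, 104 and 102 CPM in Molm-14, 30.7, 52.2 and 33.1 CPM in MV4-11, and 11.7, 10.0 and 11.3 CPM in SKNO-1. The 3 lines formed 3 separate levels in the same order as for FOXO1. The log2 difference from Molm-14 was -1.44 ± 0.19 in MV4-11 (adjusted p = 1.4e-05), while SKNO-1 differed by -3.22 ± 0.19 (adjusted p = 3.8e-10), and SKNO-1 was lower than MV4-11 by -1.78 ± 0.19 (adjusted p = 2.2e-06). All 3 were called without the 4 libraries, at -0.97, -3.22 and -2.25.

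PIK3IP1 is a membrane protein that binds and restrains the PI3K catalytic subunit. PIK3IP1 (ENSG00000100100, chr22:31281593-31292534) had 14.6, 14.9 and 14.8 CPM in Molm-14, 7.53, 7.31 and 6.70 CPM in MV4-11, and 10.7, 10.8 and 11.96 CPM in SKNO-1. MV4-11 was lowest, and its libraries differed little by mitochondrial share. The log2 difference was -1.04 ± 0.20 between MV4-11 and Molm-14 (adjusted p = 0.00045) and 0.63 ± 0.20 between SKNO-1 and MV4-11 (adjusted p = 0.019), and without the 4 libraries they were -1.01 and 0.60, both called. The second call was lost without replicate 3 of MV4-11 (0.58) or of SKNO-1 (0.58). SKNO-1 and Molm-14 differed by -0.40 (adjusted p = 0.088), which was called without the 4 libraries at the same size (adjusted p = 0.00164).

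KLF2 and KLF6 are Krüppel-like transcription factors, and KLF2 is held down by PI3K signalling in lymphocytes. KLF2 (ENSG00000127528, chr19:16324826-16328685) was low throughout, with 4.06, 5.65 and 5.18 CPM in Molm-14, 8.45, 6.44 and 7.36 CPM in MV4-11, and 4.71, 6.24 and 5.60 CPM in SKNO-1. MV4-11 stood just above the others. It was higher than Molm-14 by a log2 difference of 0.58 ± 0.19 (adjusted p = 0.017), a call lost without replicate 1 of Molm-14 (0.44) or of MV4-11 (0.48) and without the 4 libraries (0.39, adjusted p = 0.22). SKNO-1 was not called against Molm-14 (0.15, adjusted p = 0.49) or against MV4-11 (-0.43, adjusted p = 0.081, and -0.23 without the 4).

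KLF6 was highest in Molm-14. KLF6 (ENSG00000067082, chr10:3775996-3785209) had 89.4, 88.1 and 86.5 CPM in Molm-14, 64.7, 52.4 and 70.9 CPM in MV4-11, and 47.7, 48.8 and 45.3 CPM in SKNO-1. The 3 lines did not overlap. The log2 difference from Molm-14 was -0.50 ± 0.12 in MV4-11 (adjusted p = 0.0023), while SKNO-1 differed by -0.90 ± 0.12 (adjusted p = 5.1e-06). SKNO-1 was below MV4-11 by -0.40 ± 0.12 (adjusted p = 0.014), but without the 4 libraries this was -0.15 (adjusted p = 0.116) and not called, while the other 2 were called at -0.75 and -0.90. The same call was lost without replicate 1 or 3 of MV4-11 (-0.37 and -0.30) or replicate 3 of SKNO-1 (-0.37).

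TXNIP, an arrestin-like protein that binds thioredoxin and limits glucose uptake, was lower in the MV4-11 libraries that stood apart than in the rest of that line. TXNIP (ENSG00000265972, chr1:145992435-145996579) had 1188, 1209 and 1251 CPM in Molm-14, 709, 1175 and 680.0 CPM in MV4-11, and 597, 609 and 609 CPM in SKNO-1. In MV4-11 the 2 libraries over 10% mitochondrial reads were the low ones, and the third was close to Molm-14. MV4-11 was lower than Molm-14 by a log2 difference of -0.55 ± 0.22 (adjusted p = 0.041), which became -0.05 (adjusted p = 0.508) without the 4 libraries. That call was also lost on leaving out any 1 of the 6 DMSO libraries of these lines except replicate 2 of MV4-11, with differences of -0.57 to -0.41. SKNO-1 was lower than Molm-14 by -1.01 ± 0.22 (adjusted p = 0.00069). It was lower than MV4-11 by -0.45 (adjusted p = 0.1) with all libraries and by -0.96 without the 4. That last value rests on the 1 MV4-11 library with DMSO left, in a group that ran from 680.0 to 1175 CPM.

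SESN3, a sestrin that restrains mTORC1 when amino acids or growth factors run short, had the widest range. SESN3 (ENSG00000149212, chr11:95165513-95232475) had 1.72, 1.79 and 2.06 CPM in Molm-14, from 31 to 37 reads a library. It had 17.0, 27.7 and 12.7 CPM in MV4-11 and 38.6, 40.6 and 36.7 CPM in SKNO-1. The 3 lines did not overlap, and their order was the reverse of that of FOXO1 and IRS2. The log2 difference from Molm-14 was 3.27 ± 0.29 in MV4-11 (adjusted p = 1.3e-07), while SKNO-1 differed by 4.36 ± 0.29 (adjusted p = 1.4e-09). The MV4-11 difference was 3.88 without the 4 libraries, and was called. SKNO-1 was above MV4-11 by 1.09 ± 0.29 (adjusted p = 0.0076), a call lost without the 4 libraries (0.48, adjusted p = 0.077) and without replicate 3 of MV4-11 (0.83).

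CCNG2, an unusual cyclin linked to cell cycle arrest and a known FOXO target, was highest in Molm-14. CCNG2 (ENSG00000138764, chr4:77157207-77170060) had 97.5, 96.7 and 96.8 CPM in Molm-14, 73.8, 88.2 and 67.6 CPM in MV4-11, and 67.4, 67.2 and 69.4 CPM in SKNO-1. The other lines overlapped. The log2 difference from Molm-14 was -0.51 ± 0.11 in SKNO-1 (adjusted p = 0.00053) and -0.35 ± 0.11 in MV4-11 (adjusted p = 0.012). The second was lost without replicate 3 of MV4-11 (-0.27) and without the 4 libraries (-0.14, adjusted p = 0.145). SKNO-1 and MV4-11 differed by -0.16 (adjusted p = 0.23), and by -0.38 without the 4, against the 1 MV4-11 library left.

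**Figure D2:**
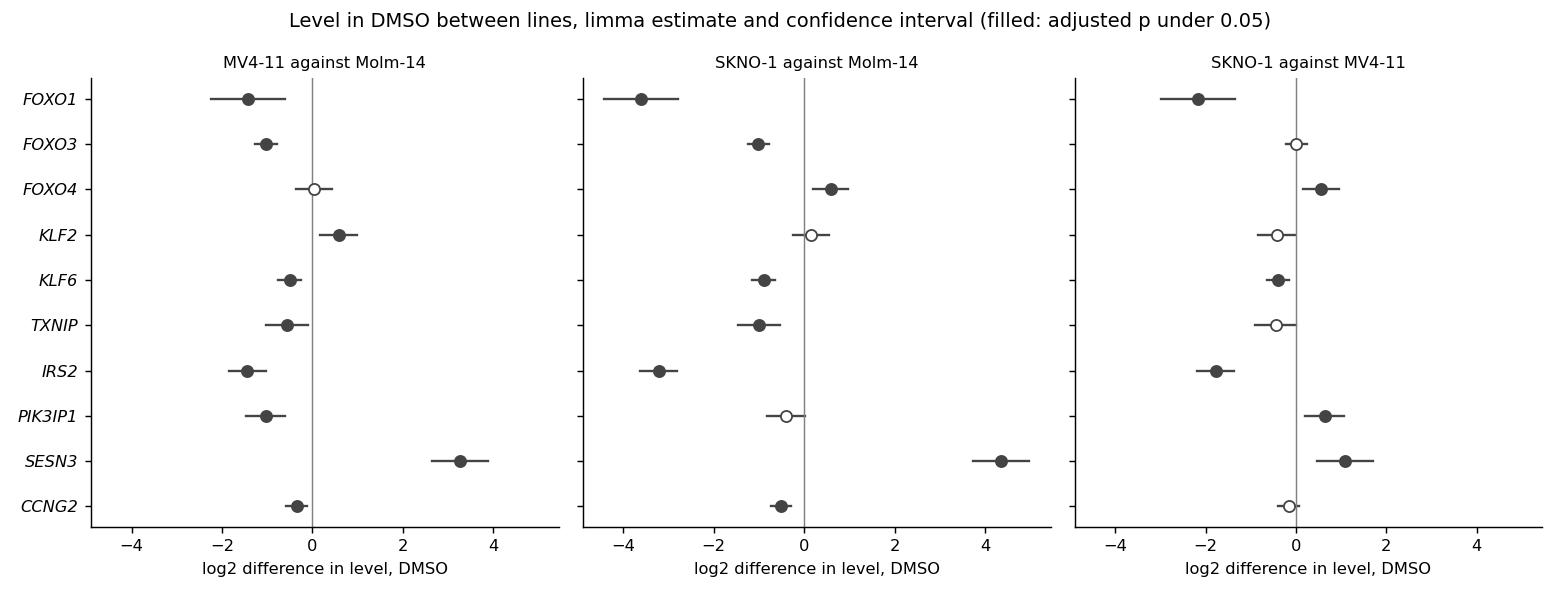
Log2 difference in level between lines with DMSO for each gene, with the limma estimate as a circle and its 95% interval as a bar. A filled circle passed an adjusted p of 0.05. SESN3 reached 4.36 between SKNO-1 and Molm-14 while FOXO1 and IRS2 lay at -3.61 and -3.22 in the same panel.

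Leaving the 4 libraries out, 6 of the 10 genes differed between MV4-11 and Molm-14 (2 higher and 4 lower), where 49.0% of all genes did (22.3% higher, 26.7% lower). Between SKNO-1 and Molm-14, 9 did (2 higher and 7 lower), where 81.0% of all genes did (39.0% higher, 42.0% lower). Between SKNO-1 and MV4-11, 7 did (2 higher and 5 lower), where 41.1% of all genes did (17.3% higher, 23.9% lower). The part of the mitochondrial share in the differences that moved was not tested. Within MV4-11, where 3 libraries were over 10% and 3 under it, the 2 sets can be set side by side whatever their treatment, a split made after the values were seen. The set over 10% holds 2 libraries with DMSO and 1 with RMC-4550, and the other set holds 1 and 2. Mitochondrial share and treatment cannot be fully told apart in this split. TXNIP was at 680.0 to 888 CPM in the 3 over 10% and at 1154 to 1175 CPM in the 3 under it. SESN3 was at 12.7 to 17.0 against 27.7 to 29.6 CPM, FOXO1 at 4.41 to 4.81 against 6.83 to 9.62 CPM, FOXO3 at 45.0 to 47.5 against 56.0 to 62.4 CPM, and FOXO4 at 20.2 to 26.7 against 29.2 to 33.3 CPM. KLF6 was the 1 gene of the 10 that ran the other way, at 63.1 to 70.9 against 50.7 to 54.5 CPM. So 5 of the 10 were lower and 1 was higher without overlap in the libraries with more mitochondrial reads, where 26.3% of the genes tested in MV4-11 were lower and 20.6% higher.

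**Figure D3:**
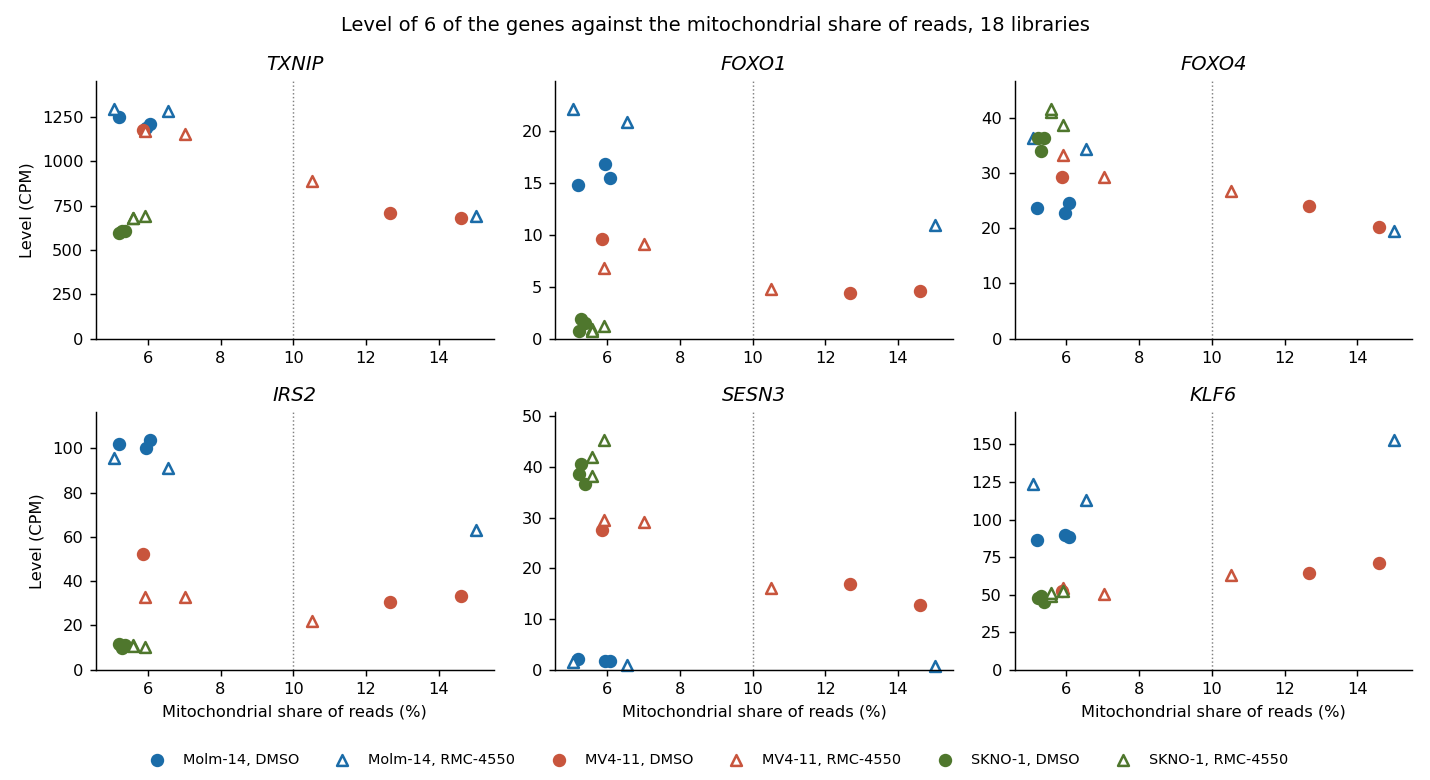
Level (CPM, linear axis from 0) of 6 of the genes against the mitochondrial share of reads in the 18 libraries, with 1 symbol per library, colour for the line and shape for the treatment. The dotted line marks 10%. The 3 MV4-11 libraries to its right lay at 680.0 to 888 CPM for TXNIP and the 3 to its left at 1154 to 1175 CPM, while KLF6 was higher on the right.

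The second comparison was of RMC-4550 against DMSO within each line. In Molm-14 KLF6 rose and SESN3 fell. No gene was called in MV4-11, and in SKNO-1 FOXO3 and CCNG2 fell. So 2 of the 10 changed in Molm-14, where 46.7% of all genes tested did (21.5% higher, 25.2% lower). In MV4-11 limma called 0 of the 10, where 13.9% of all genes were called (5.85% higher, 8.03% lower). At an unadjusted p under 0.05 there were 2, KLF2 and CCNG2, and limma with voom weights also called 0. In SKNO-1 2 of the 10 did, where 27.1% of all genes did (10.8% higher, 16.2% lower). The median log2 change of the 10 was -0.05, 0.0034 and -0.16 in the order Molm-14, MV4-11, SKNO-1, beside -0.06, -0.01 and -0.05 over all genes tested.

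In Molm-14, KLF6 had 123, 153 and 113 CPM with RMC-4550, all above its 86.5 to 89.4 CPM with DMSO. The log2 change was 0.55 ± 0.12 (SE, limma, adjusted p = 0.0014). The highest of the 3 was the library with 15.0% mitochondrial reads, and without the 4 libraries the rise was 0.43 (adjusted p = 1.07e-05). It was called on leaving out each of the 6 Molm-14 libraries in turn, at 0.43 to 0.64.

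SESN3, already the lowest of the 10 in Molm-14, had 1.59, 0.705 and 0.905 CPM with RMC-4550, from 29, 11 and 16 reads. All 3 were below its DMSO libraries. The log2 change was -0.86 ± 0.29 (adjusted p = 0.024), and -0.62 (adjusted p = 0.00423) without the 4 libraries. The call was lost on leaving out replicate 2 or 3 with DMSO (-0.89 and -0.78) or replicate 2 or 3 with RMC-4550 (-0.62 and -0.79), with log2(CPM + 1) (-0.49, adjusted p = 0.104) and with voom weights (-0.84, adjusted p = 0.244).

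FOXO4 and FOXO1 each had 2 Molm-14 libraries with RMC-4550 above the DMSO range and 1 below it. FOXO4 had 36.3, 19.4 and 34.3 CPM with RMC-4550, and the low value was the library with 15.0% mitochondrial reads. Its log2 change was 0.29 (95% interval -0.10 to 0.68, adjusted p = 0.2), and without the 4 libraries it was 0.58 (adjusted p = 3.81e-06), which was called. FOXO1 had 22.1, 11.0 and 20.8 CPM, and its change was 0.13 (-0.69 to 0.95) with all libraries and 0.46 (adjusted p = 0.221) without the 4. FOXO3 had 117, 111 and 108 CPM, which overlapped its DMSO libraries, and its change was 0.11 (-0.12 to 0.35), and 0.12 without the 4.

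The other Molm-14 values with RMC-4550 were 5.79, 5.38 and 6.05 CPM for KLF2, which overlapped DMSO with a log2 change of 0.22 (adjusted p = 0.35), and of 0.27 (adjusted p = 0.268) without the 4 libraries. TXNIP had 1297, 693 and 1281 CPM. Replicate 2, the one rich in mitochondrial reads, was far below all Molm-14 libraries and the 2 others were above them. The change in TXNIP was -0.21 (95% interval -0.68 to 0.25), and 0.08 (adjusted p = 0.129) without the 4 libraries. IRS2 had 95.4, 63.2 and 91.3 CPM, PIK3IP1 15.3, 7.24 and 13.9 CPM, and CCNG2 95.0, 69.9 and 87.5 CPM, each with replicate 2 as the lowest. Their log2 changes were -0.32, -0.35 and -0.22 with all libraries, and -0.13, -0.02 and -0.09 without the 4, none of them called. PIK3IP1 and CCNG2 were called on leaving out replicate 1 with RMC-4550 (-0.55 and -0.31). The groups did not overlap for 4 of the 10, KLF6 upward and IRS2, SESN3 and CCNG2 downward, where 60.0% of all genes tested did not overlap (26.9% higher, 33.1% lower).

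In MV4-11, the 2 FOXO targets IRS2 and CCNG2 were the largest changes once the libraries that stood apart were set aside. IRS2 had 22.2, 33.1 and 33.0 CPM with RMC-4550 and 30.7, 52.2 and 33.1 CPM with DMSO, so that the groups overlapped. Its log2 change was -0.38 ± 0.19 (adjusted p = 0.24), and -0.66 (adjusted p = 0.000114) without the 4 libraries. CCNG2 had 64.0, 67.1 and 59.3 CPM with RMC-4550, all just below its DMSO libraries. Its change was -0.26 ± 0.11 (adjusted p = 0.13), and -0.48 (adjusted p = 0.000331) without the 4. Those second values set 2 treated libraries against 1, which is assumed to vary like the libraries of the other groups.

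KLF2 had 5.97, 3.90 and 6.04 CPM with RMC-4550 in MV4-11, all below its DMSO libraries. Its log2 change was -0.50 ± 0.19 (adjusted p = 0.098), and -0.41 (adjusted p = 0.289) without the 4 libraries. TXNIP had 888, 1171 and 1154 CPM, and its change was 0.36 (95% interval -0.10 to 0.82) with all libraries, 0.61 (adjusted p = 0.0416) without replicate 2 of DMSO, and -0.02 (adjusted p = 0.882) without the 4. The direction of TXNIP in MV4-11 therefore turned with the libraries used. SESN3 had 16.2, 29.6 and 29.1 CPM and changed by 0.41 (-0.21 to 1.03), and by 0.09 without the 4. The 3 FOXO genes overlapped between treatments, with FOXO1 at 4.81, 6.83 and 9.14 CPM, FOXO3 at 47.5, 56.9 and 56.0 CPM and FOXO4 at 26.7, 33.3 and 29.2 CPM. Their changes were 0.21, 0.07 and 0.29, none of them called, and -0.28, -0.14 and 0.09 without the 4. KLF6 (63.1, 54.5 and 50.7 CPM) and PIK3IP1 (6.65, 7.54 and 6.45 CPM) changed by -0.15 and -0.06, and by 0.0049 and -0.07 without the 4. The groups did not overlap for 2 of the 10, KLF2 and CCNG2, where 24.6% of all genes tested did not (11.1% higher, 13.5% lower).

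In SKNO-1, where no library was over 10% mitochondrial reads, CCNG2 had 54.0, 50.8 and 53.0 CPM with RMC-4550 against 67.2 to 69.4 CPM with DMSO. All treated libraries were below all controls. The log2 change was -0.37 ± 0.11 (adjusted p = 0.018). The call was lost without replicate 3 of DMSO (-0.36, adjusted p = 0.0591) or replicate 2 of RMC-4550 (-0.35, adjusted p = 0.0632).

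FOXO3 had 44.8, 38.7 and 39.3 CPM with RMC-4550 in SKNO-1, all below its 50.9 to 51.5 CPM with DMSO. The log2 change was -0.32 ± 0.11 (adjusted p = 0.041). It stayed called on leaving out replicate 1 of RMC-4550, and it was lost on leaving out any 1 of the 5 other libraries, at -0.33 to -0.28. It was also lost with median-ratio scaling (-0.26, adjusted p = 0.0886) and quantile normalization (-0.20, adjusted p = 0.116). With FOXO3B added, the level was 55.9 ± 0.853 CPM with DMSO and 47.0 ± 3.38 CPM with RMC-4550 (SD, n = 3), a sum made after the values were seen.

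PIK3IP1 had 7.47, 7.50 and 9.01 CPM with RMC-4550 in SKNO-1, all below its DMSO libraries at 10.7 to 11.96 CPM. Its change was -0.48 ± 0.20 (adjusted p = 0.087). TXNIP had 689, 681 and 679 CPM, all above its 597 to 609 CPM, and FOXO4 had 38.7, 41.1 and 41.7 CPM, all above its 33.9 to 36.4 CPM. Their changes were 0.17 ± 0.22 (adjusted p = 0.61) and 0.19 ± 0.18 (adjusted p = 0.49). The standard errors come from the spread in all 6 groups. Without the 4 libraries all 3 were called at the same sizes, PIK3IP1 lower (adjusted p = 0.000797) and TXNIP (adjusted p = 0.00196) and FOXO4 (adjusted p = 0.021) higher. A fit to SKNO-1 alone also called all 3, where it called 3576 genes higher and 4875 lower of the 14670 tested. KLF6 had 52.4, 49.3 and 51.0 CPM, just above DMSO, and changed by 0.11 (adjusted p = 0.56, and 0.0976 without the 4).

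The rest of the SKNO-1 values overlapped between treatments. FOXO1 had 1.25, 0.881 and 0.736 CPM from 16 to 27 reads, and its log2 change was -0.43 (95% interval -1.25 to 0.39). At this depth a change of that size in FOXO1 could not be told from 0. KLF2 had 4.12, 5.29 and 4.09 CPM and changed by -0.29 (-0.70 to 0.11). IRS2 had 10.4, 11.3 and 10.7 CPM and changed by -0.02 (-0.44 to 0.39), and SESN3 had 45.4, 41.9 and 38.3 CPM and changed by 0.11 (-0.51 to 0.73). The groups did not overlap for 6 of the 10, with FOXO4, KLF6 and TXNIP higher and FOXO3, PIK3IP1 and CCNG2 lower, where 62.0% of all genes tested did not overlap (26.6% higher, 35.4% lower).

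**Figure D4:**
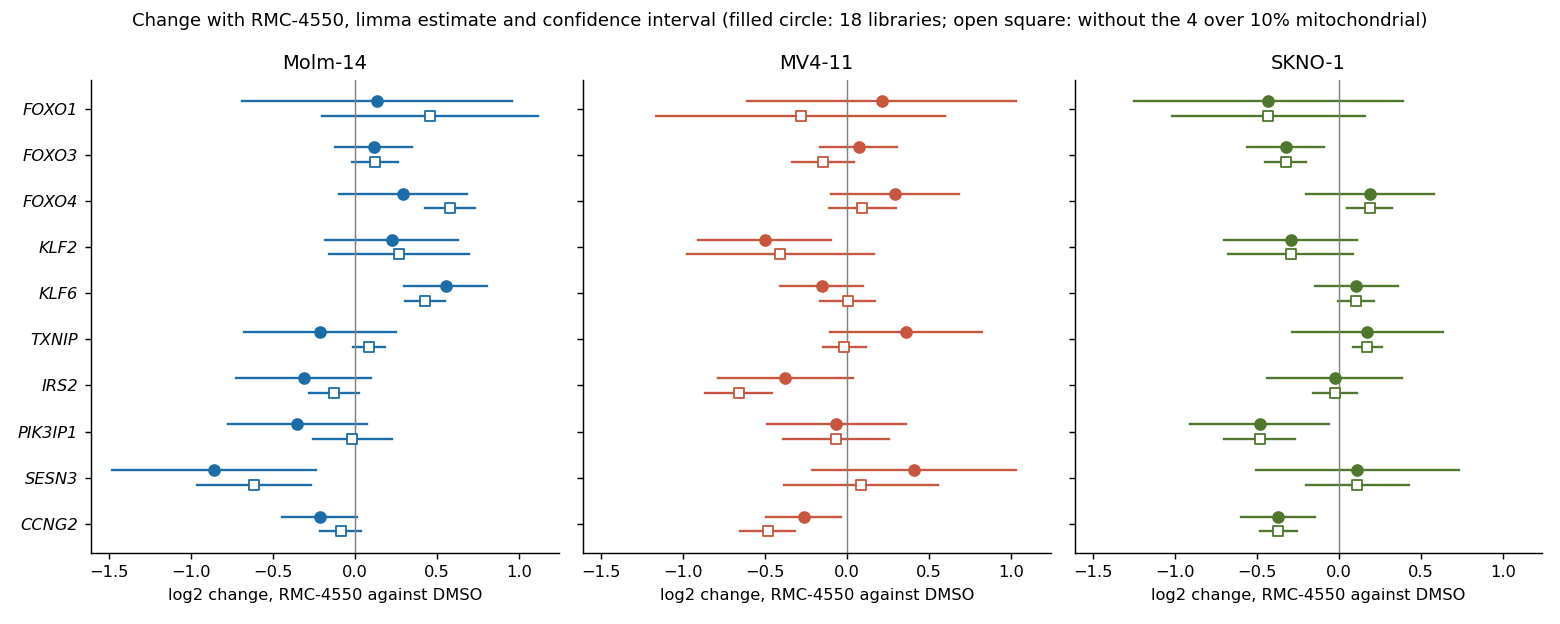
Log2 change with RMC-4550 against DMSO in each line, with limma estimates and 95% intervals. Filled circles are from all 18 libraries and open squares from the fit without the 4 libraries over 10% mitochondrial reads. KLF6 in Molm-14 lay above 0 in both, while FOXO4 in Molm-14 moved from 0.29 to 0.58 and IRS2 in MV4-11 from -0.38 to -0.66.

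In the fit that left the 4 libraries out, 3 of the 10 changed in Molm-14 (KLF6 and FOXO4 higher, SESN3 lower), where 58.7% of all genes did (26.6% higher, 32.1% lower). In MV4-11 2 did (IRS2 and CCNG2 lower), where 28.4% of all genes did (8.85% higher, 19.6% lower). In SKNO-1 5 did (FOXO4 and TXNIP higher, FOXO3, PIK3IP1 and CCNG2 lower), where 53.3% of all genes did (21.2% higher, 32.1% lower). When the fit over all 18 libraries took the mitochondrial share as a covariate, the called genes were the same, except that FOXO3 was also called in Molm-14 (0.20, adjusted p = 0.0444). That fit called 57.5% of all genes in Molm-14, 34.3% of those in MV4-11 and 49.6% of those in SKNO-1. With all libraries, the share of the 10 that changed was below that of all genes in each line. With the covariate it was about equal in SKNO-1, at 5 of 10 beside 49.6%. A share out of 10 genes moves widely with 1 call, and no test of the set was made. In none of the 3 fits did all 3 lines agree in a call of any of the 10 genes. With all libraries, the treated CCNG2 values lay below every DMSO value of the same line. The gap for MV4-11 was narrow, at 67.1 against 67.6 CPM, and that DMSO library was over 10% mitochondrial reads. How many of all genes were lower without overlap in all 3 lines was not counted. The CCNG2 changes were -0.22, -0.26 and -0.37, from Molm-14 through MV4-11 to SKNO-1, and only the last was called. Of all genes tested, 33.1%, 13.5% and 35.4% were lower without overlap in that order. In that order FOXO4 was above 0 (0.29, 0.29 and 0.19). IRS2 (-0.315, -0.38 and -0.02) and PIK3IP1 (-0.35, -0.06 and -0.48) were below 0, and none of these was called. The other genes of the 10 differed in sign between lines. Of the 7 target genes, KLF6 was called higher in Molm-14 in all 3 fits, and TXNIP was called higher in SKNO-1 in 2 of them, without the 4 libraries and with the covariate. KLF2, IRS2, PIK3IP1, SESN3 and CCNG2 were not called higher in any line in these 3 fits.

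The lines were then compared in their response. Where the 4 libraries are left out, MV4-11 has 1 DMSO library, which the fit takes to vary like the libraries of the other groups. For IRS2, FOXO4 and CCNG2 that library was the highest of the MV4-11 libraries with DMSO. The response of Molm-14 differed from that of MV4-11 in 2 of the 10, where 19.5% of all genes tested did (10.3% higher, 9.12% lower). KLF6 responded more in Molm-14, by a log2 difference of 0.71 ± 0.17 (adjusted p = 0.01), which was 0.42 (adjusted p = 0.0071) without the 4 libraries. SESN3 responded in the other direction, by -1.27 ± 0.41 (adjusted p = 0.043). SESN3 was at -0.70 (adjusted p = 0.0923) without the 4 libraries and not called, and the call was kept in 3 of the 12 fits that left out 1 library of these lines. Without the 4 libraries IRS2 (0.53), FOXO4 (0.49) and CCNG2 (0.40) were called as well as KLF6, each higher in Molm-14 than in MV4-11, where 17.7% of all genes were called (9.72% higher, 7.94% lower). The response of SKNO-1 differed from the mean of the other lines in 0 of the 10 by limma, also with voom weights, where 3.8% of all genes did (1.35% higher, 2.45% lower). FOXO3 had the lowest unadjusted p of the 10 (-0.41, limma, unadjusted p = 0.0078, adjusted p = 0.12). How many of all genes had an unadjusted p under 0.05 was not counted. FOXO3 was called on leaving out replicate 2 of MV4-11 with DMSO (-0.49, adjusted p = 0.00987). Without the 4 libraries IRS2 was higher (0.37) and FOXO3 (-0.31) and PIK3IP1 (-0.44) were lower in SKNO-1, where 7.53% of all genes were higher and 11.4% lower.

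Other genes of the pathway were taken from lists. Of the 33 listed genes of the PI3K-AKT-mTOR pathway, 6 rose and 9 fell among 32 tested in Molm-14, 5 rose and 1 fell among 31 in MV4-11, and 4 rose and 5 fell among 31 in SKNO-1. Over all genes tested, 21.5% rose and 25.2% fell in Molm-14, 5.85% and 8.03% in MV4-11, and 10.8% and 16.2% in SKNO-1. The median log2 changes of the list were -0.22, 0.02 and -0.10. The balance in MV4-11 turned in the fit without the 4 libraries, where 5 rose and 8 fell, with 12 and 14 in Molm-14 and 9 and 15 in SKNO-1. Over all genes that fit had 26.6% higher and 32.1% lower in Molm-14, 8.85% and 19.6% in MV4-11, and 21.2% and 32.1% in SKNO-1. With the covariate 6 rose and 11 fell in MV4-11. PIK3R6 and PIK3R5, the regulatory subunits of PI3K gamma, rose in all 3 lines in each of the 3 fits. PIK3R6 went from 3.14 ± 0.131 to 13.4 ± 2.85 CPM (SD, n = 3) in Molm-14, with log2 changes of 2.06, 0.53 and 0.49 in the order Molm-14, MV4-11, SKNO-1, and PIK3R5 changed by 0.55, 0.52 and 0.39. RICTOR, a subunit of the complex mTORC2 that phosphorylates AKT, fell by 0.41, 0.33 and 0.69 on the log2 scale. SGK1, an AKT-like kinase that also phosphorylates FOXO proteins, rose from 9.66 ± 0.825 to 26.0 ± 1.38 CPM in Molm-14 (1.43) and by 0.58 in MV4-11, and changed by -0.10 (adjusted p = 0.68) in SKNO-1.

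Among the transcripts of proteins that bind or modify FOXO factors, CDK2, PRMT1, YWHAH, SKP2 and YWHAE fell in all 3 lines in each of the 3 fits. They belong to a list of 20 genes for such proteins and for those that move FOXO factors. Of these 19 were tested in each line, and 2 rose and 9 fell in Molm-14, 0 rose and 5 fell in MV4-11, and 0 rose and 7 fell in SKNO-1, with medians of -0.27, -0.13 and -0.22. Of all genes 21.5%, 5.85% and 10.8% rose, and 25.2%, 8.03% and 16.2% fell. The share of all genes that fell in all 3 lines was not counted. With the 4 left out 5 rose and 10 fell in Molm-14, 0 and 12 in MV4-11, and 1 and 12 in SKNO-1, where 32.1%, 19.6% and 32.1% of all genes fell. CDK2, a cell cycle kinase that phosphorylates FOXO1, fell from 45.7 ± 3.52 to 24.0 ± 4.03 CPM in Molm-14, with log2 changes of -0.94, -0.74 and -1.30 in the 3 lines. PRMT1, an arginine methyltransferase that shields FOXO1 from AKT, changed by -0.93, -0.35 and -0.64. YWHAH, an adaptor of the family that holds phosphorylated FOXO proteins in the cytoplasm, changed by -0.50, -0.51 and -0.72, and SKP2, a ubiquitin ligase subunit that targets FOXO1, by -0.53, -0.42 and -0.62.

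Of 26 other known FOXO targets, 6 rose and 3 fell among 21 tested in Molm-14, 5 rose and 2 fell among 20 in MV4-11, and 6 rose and 3 fell among 20 in SKNO-1, with medians of 0.18, 0.21 and 0.18. Of all genes 21.5%, 5.85% and 10.8% rose, and 25.2%, 8.03% and 16.2% fell. In the fit without the 4 libraries 11 rose and 3 fell in Molm-14, 5 and 3 in MV4-11, and 10 and 5 in SKNO-1, where 26.6%, 8.85% and 21.2% of all genes rose and 32.1%, 19.6% and 32.1% fell. The median in MV4-11 was 0.0026 in that fit and 0.030 with the covariate, and those of the other lines were 0.29 and 0.18 without the 4. TRIB1, a pseudokinase, rose in all 3 lines, by 0.62, 0.99 and 0.50. BCL2L11, which encodes the death-promoting protein BIM, rose in MV4-11, where its level was 23.5 ± 10.05 CPM with DMSO and 47.8 ± 14.1 CPM with RMC-4550 (log2 change 1.06, adjusted p = 0.028). In SKNO-1 it rose with levels of 31.8 ± 1.86 and 84.7 ± 5.67 CPM (1.41, adjusted p = 0.0024), and in Molm-14 it changed by 0.25 (adjusted p = 0.51). BCL2L11 was called higher in Molm-14 without the 4 libraries (0.64, adjusted p = 1.1e-06) and with the covariate (0.67, adjusted p = 8.1e-07), and in MV4-11 it was then at 0.69 and 0.63. TNFSF10, the death ligand TRAIL, rose in MV4-11 (1.45) and SKNO-1 (1.33) and changed by 0.01 in Molm-14, and by 0.29 (adjusted p = 0.097) without the 4. SESN1, the sestrin of the same family as SESN3, fell in all 3 lines, by 0.19, 0.26 and 0.66 on the log2 scale.

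Among 17 relatives of the 10 genes, 2 rose and 2 fell of 14 tested in Molm-14, 1 rose and 1 fell of 16 in MV4-11, and 3 rose and 1 fell of 16 in SKNO-1, with medians of 0.14, 0.17 and 0.14. Of all genes 21.5%, 5.85% and 10.8% rose and 25.2%, 8.03% and 16.2% fell. With the 4 libraries left out 7 rose and 3 fell in Molm-14, 2 and 2 in MV4-11, and 8 and 4 in SKNO-1, with 26.6%, 8.85% and 21.2% of all genes higher and 32.1%, 19.6% and 32.1% lower, and the median in MV4-11 was 0.029. SESN2 fell in Molm-14, from 90.3 ± 3.95 to 50.4 ± 17.3 CPM (-0.91, adjusted p = 0.012, and -0.59 without the 4). SESN2 was not called in MV4-11 with all libraries (-0.064, adjusted p = 0.91) and was called lower there without the 4 (-0.53, adjusted p = 0.0021). MLXIP, a glucose-sensing factor that drives TXNIP, rose from 184 ± 2.99 to 341 ± 27.8 CPM in Molm-14 (0.89) and by 0.49 in MV4-11, and changed by 0.18 (adjusted p = 0.13) in SKNO-1, a change that was called without the 4 (adjusted p = 0.0092) and with the covariate (0.17, adjusted p = 0.014). KLF4, a Krüppel-like factor like KLF2 and KLF6, rose in SKNO-1 by 0.57 (adjusted p = 0.016) and changed by 0.36 and 0.30 in Molm-14 and MV4-11, where it was not called. In Molm-14 KLF4 was called higher without the 4 (0.62, adjusted p = 4.8e-05) and with the covariate (0.53, adjusted p = 0.00034). The lists were described by counts and medians, and no test of a list as a whole was made.

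**Figure D5:**
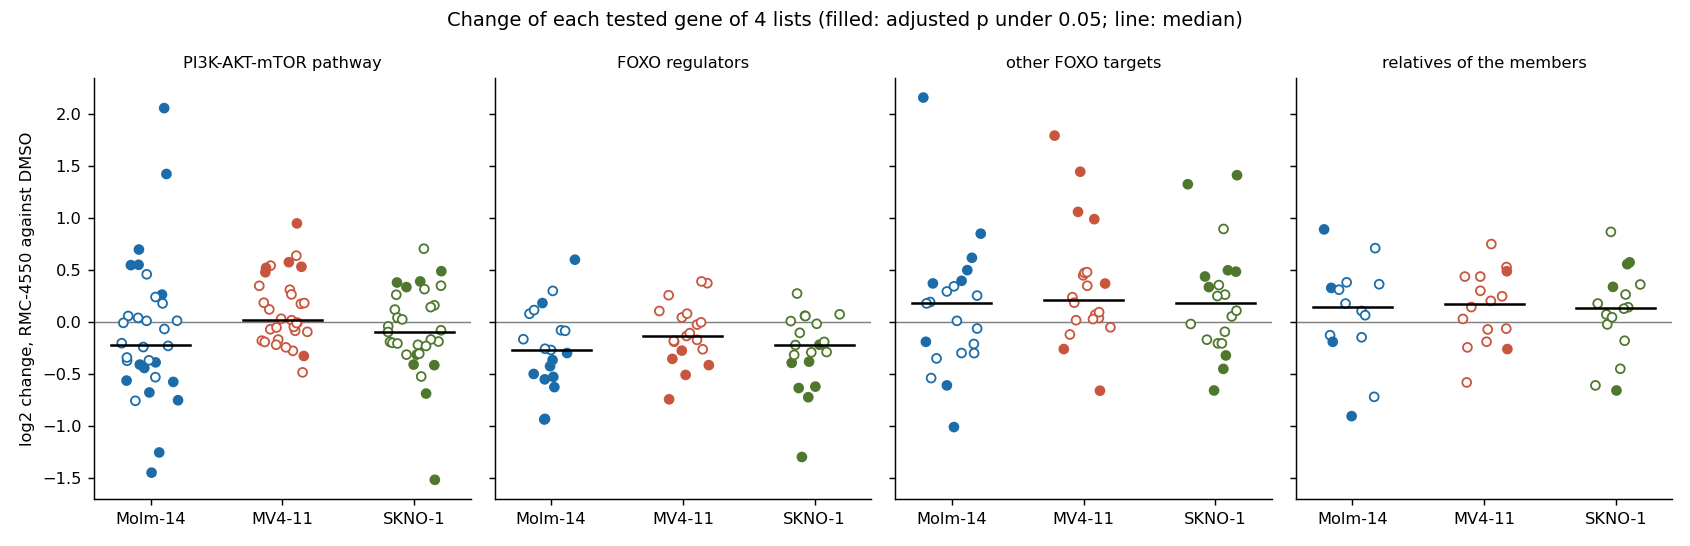
Log2 change with RMC-4550 of each tested gene in 4 lists, by line. Each circle is 1 gene, filled where its adjusted p was under 0.05, and the bar is the median of the list. With all 18 libraries, the medians of the FOXO regulators lay at -0.27, -0.13 and -0.22 in the order Molm-14, MV4-11, SKNO-1. Those of the other FOXO targets lay at 0.18, 0.21 and 0.18 in the same order. Without the 4 over 10% mitochondrial reads the MV4-11 median of the other targets was 0.0026.

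The 10 genes did not follow a single pattern over the 18 libraries, as Pearson correlations of log2 levels show. The points share their line, their treatment and their depth, so these are descriptions and have no p. FOXO1 and IRS2 ran together (r = 0.956), as did FOXO3 and IRS2 (0.885) and FOXO3 and KLF6 (0.859). SESN3 ran against KLF6 (-0.964), FOXO3 (-0.928) and IRS2 (-0.873). FOXO4 was at -0.577 with FOXO1 and -0.414 with FOXO3. The genes most like each of the 10, among those with a mean of at least 5 CPM, were NIPA1 for IRS2 (0.995), TRIQK for SESN3 (0.993), YY1 for FOXO3 (0.986), C3orf80 for FOXO1 (0.984), NIPSNAP2 for CCNG2 (0.977), GKAP1 for KLF6 (0.974), TAP1 for TXNIP (0.968), ASAH1 for PIK3IP1 (0.961) and CDS2 for FOXO4 (0.957). For KLF2 the nearest was ATG4B, at 0.833, the lowest of these values.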

How the data were processed

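The authors deposited 1 table of log2 values for 40184 genes in 18 libraries. Per the submitters' processing notes, FastQC, STAR, limma and the build GRCh38 were used. Their versions, the counter, its strand setting and the annotation are not given in the sources used here. The deposited log2 values are logarithms of reads plus 0.5, scaled to an effective library (the read total times a factor of 0.890 to 1.11 per sample), a form found from the values, which are not raw counts. Undoing it gave whole reads (within 0.02 reads, below 200 reads) for all values tested in every library. CPM is reads over the effective library. Mean ± SD is over 3 replicates, and ± in differences is the standard error.

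The test was limma 3.58.1 (R 4.3.3), two-sided, with lmFit and eBayes with a trend on these log2 values, in 1 fit over 18 samples with 1 coefficient per group. A gene entered the fit if 3 or more samples had 1 CPM or more, and was tested in a line that met the same minimum. The p-values were adjusted by Benjamini-Hochberg over all genes tested, with calls made below 0.05. The design had assumed linear values with 1 added before the logarithm, and log2(CPM + 1) became an alternative. The fit was also run on simulated reads with a fixed spread and with changes in Molm-14 only. Those reads held no libraries rich in mitochondrial reads, so that run does not bear on how such libraries move the calls.

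The 10 genes and the gene lists were chosen with earlier results of these data known. All 10 genes are named in each comparison. From each other list up to 4 genes are named, those whose calls had 1 direction across the 3 lines with the largest mean change, filled with the largest called changes in any line (mean of at least 5 CPM). YWHAE is named in addition to 4 of the FOXO regulators, since it was also called lower in all 3 lines. Symbols were found for 40069 of the 40184 IDs. Lengths are unions of exons in GENCODE 29, and gene positions are from RefSeq GRCh38.p14. The alternatives were other offsets, filters and scalings, separate fits of the lines, a block for the replicate number, no trend, voom weights, the mitochondrial share as a covariate, leaving out the 4 libraries above 10%, a fold change of at least 2 and leaving out each library. Reads carry no molecular identifiers, so counting precision is not that of independent molecules. Python 3.11.15 with matplotlib 3.10.9 drew the figures.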

Additional observations from a re-analysis of the deposited data

Results flagged for a closer look

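KLF6 and SESN3 were the 2 of the 10 genes whose response to RMC-4550 differed between Molm-14 and MV4-11 by a test of the difference itself. For KLF6 the log2 difference in response was 0.71 (limma, adjusted p = 0.01), from a change of 0.55 in Molm-14 and -0.15 in MV4-11, and it was called in all 12 fits that left out 1 library of these lines. For SESN3 it was -1.27 (adjusted p = 0.043), from -0.86 in Molm-14, where it had 11 to 37 reads a library, and 0.41 in MV4-11. The SESN3 call was kept in 3 of those 12 fits. In MV4-11 the 3 libraries over 10% mitochondrial reads were the 3 lowest for SESN3 and the 3 highest for KLF6, 2 of them with DMSO and 1 with RMC-4550. Without the 4 libraries over 10% the differences were 0.42 (adjusted p = 0.0071) for KLF6 and -0.70 (adjusted p = 0.0923) for SESN3.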

How the results depend on the processing

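The number of the 10 genes called depended on the libraries and the fit. With RMC-4550 in Molm-14 it was 2, and it was 1 with log2(CPM + 1), a separate fit per line or voom weights, 4 with quantile normalization or the mitochondrial covariate, 0 with a fold change of at least 2, and 1 to 4 on leaving out 1 library. In MV4-11 it was 0, 2 with the mitochondrial covariate and 2 without the 4 libraries over 10%, and 0 to 1 on leaving out 1 library. In SKNO-1 it was 2, and it was 1 with no filter on low values, median-ratio scaling, quantile normalization or eBayes without a trend, 5 with a separate fit, the covariate or without the 4 libraries, 0 with a fold change of at least 2, and 0 to 2 on leaving out 1 library. Between lines with DMSO a fold change of at least 2 left 5 of 9 (MV4-11 against Molm-14), 5 of 8 (SKNO-1 against Molm-14) and 3 of 6 (SKNO-1 against MV4-11), and leaving out 1 library gave 7 to 9, 8 and 2 to 7. The last was 2 without replicate 3 of MV4-11 and 3 without replicate 3 of SKNO-1. For the response of SKNO-1 against the others it was 0, 2 with the covariate, 3 without the 4 libraries and 0 to 1 on leaving out 1 library. For Molm-14 against MV4-11 it was 2, 4 with the covariate or without the 4 libraries, 1 to 4 on leaving out 1 library, and 1 without a filter on low values, with log2(CPM + 1), in a separate fit, with eBayes without a trend, with voom weights or with a fold change of at least 2. With DMSO the fold change cut calls over all genes between MV4-11 and Molm-14 from 3635 higher and 4215 lower to 1814 and 1021. For SKNO-1 against Molm-14 they went from 4701 and 4965 to 2639 and 2278, and against MV4-11 from 2965 and 3299 to 832 and 1178. In the response of Molm-14 against MV4-11 they were 1392 and 1228, 1675 and 1315 with the covariate and 631 and 518 in a separate fit. The cause was not tested. A separate fit cannot be made for SKNO-1 against the mean of the others. Calls over all genes with RMC-4550 moved with these settings too. In SKNO-1 they were 1588 higher and 2381 lower of 14670 tested. A separate fit gave 3576 and 4875, the covariate 2937 and 4333, and a fold change of at least 2 gave 449 and 433. In Molm-14 they were 2997 and 3525 of 13971, with 3810 and 4219 under the covariate. There a separate fit gave 2489 and 2841, and the fold change 1080 and 833.

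With the replicate number as a block, 1 gene was called in place of 2 in SKNO-1 and 1 in place of 2 for Molm-14 against MV4-11 in response. Of the 9 pairs of libraries with the same number, 3 correlated above 0.1 (range -0.399 to 0.591). Of the 9 treated libraries, 3 correlated best with their own number. With 3 libraries a group, these correlations cannot settle whether the numbers pair the samples.

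These estimates, none of them called with all libraries, turned in sign. With RMC-4550 in Molm-14, TXNIP was 0.083 with the covariate and 0.084 without the 4 libraries. In MV4-11 with the covariate and without the 4 libraries, FOXO1 was -0.17 and -0.28 and FOXO3 -0.022 and -0.14, and without the 4 KLF6 was 0.0049 and TXNIP -0.016. In SKNO-1, IRS2 was 0.040 with median-ratio scaling, 0.0255 with quantile normalization and 0.0068 with the covariate. With DMSO, KLF2 in SKNO-1 against Molm-14 was -0.0555 with quantile normalization, and FOXO3 in SKNO-1 against MV4-11 was -0.022 with it, -0.15 with the covariate and -0.29 without the 4 libraries. In the response of Molm-14 against MV4-11, FOXO1 was 0.033 with quantile normalization, 0.67 with the covariate and 0.74 without the 4, TXNIP 0.029 with the covariate and 0.10 without the 4, and PIK3IP1 0.11 and 0.052. On leaving out 1 library the ranges that crossed 0 were, with RMC-4550, FOXO1 -0.051 to 0.46 and TXNIP -0.37 to 0.084 in Molm-14, FOXO1 -0.013 to 0.58 and FOXO3 -0.016 to 0.22 in MV4-11, and IRS2 -0.089 to 0.022 in SKNO-1. With DMSO they were FOXO3 -0.077 to 0.16 (SKNO-1 against MV4-11) and FOXO4 -0.10 to 0.17 (MV4-11 against Molm-14). In response they were TXNIP -0.047 to 0.18 (SKNO-1 against the others) and, for Molm-14 against MV4-11, CCNG2 -0.060 to 0.17, FOXO1 -0.44 to 0.25, FOXO3 -0.11 to 0.13, FOXO4 -0.16 to 0.29, IRS2 -0.18 to 0.25 and PIK3IP1 -0.49 to 0.047.

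Over all genes, median-ratio scaling moved the share of calls that were higher in SKNO-1 with RMC-4550 from 40.0% to 50.4% and in MV4-11 from 42.2% to 51.9%. Calls over all genes in MV4-11 were 862 higher and 1183 lower, 328 and 346 in a separate fit, and 1788 and 3266 with the covariate. Depth limits FOXO1 in SKNO-1 (15 to 42 reads a library) and SESN3 in Molm-14 (11 to 37).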
